A study of Homo sapiens with 9 samples.

Results

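IL33 and the interleukin 1 (IL1) family were followed through all single-gene probe sets of 10 genes, 24 probe sets of 54675 on the arrays and 10 genes of 19775 tested. The genes were IL33, IL18, IL1A, IL1B, IL1RN, IL1R1, IL1RL1, IL1RAP, IL1R2 and IRAK2. They were selected on measured values of these same arrays, so their levels and differences are given as a description. No p is printed for them, and where limma's calls of these genes are counted or their loss under an alternative is named, the calls describe the same values and support nothing. The samples were cultures of A549, an established cell line from a human lung adenocarcinoma, which carries an inactivating KEAP1 mutation and therefore keeps the transcription factor Nrf2 active without a stimulus. Mock cells received the transfection reagent alone, NS siRNA cells a non-targeting siRNA at 25 nM, and Nrf2 siRNA cells an siRNA against Nrf2 at 25 nM. Each of the 3 groups had 3 biological replicates, and total RNA was taken at 96 h and hybridised to 1 array per replicate. All groups share the cell line and the reagent. The labels name 1 Nrf2 siRNA condition in 1 line with no rescue, so loss of Nrf2 and any other effect of that siRNA cannot be told apart.

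Cytokines of the IL1 family signal danger and infection at epithelial surfaces. IL1A and IL1B bind the receptor IL1R1, which recruits the shared chain IL1RAP, the adaptor MYD88 and kinases of the IRAK family, and the signal ends in NF-kB and MAP kinase activity. IL33 is stored in the nucleus of epithelial cells and, once released, binds IL1RL1 (ST2) together with IL1RAP. IL18 needs cleavage by caspase 1 and has receptor chains of its own. The pathway is restrained by IL1RN, which occupies IL1R1 without a signal, and by IL1R2, a decoy receptor that lacks the signalling domain.

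RefSeq start-site windows (250 bases before the start, assembly GRCh38.p14) were found for 9 of the 10 genes, 18 windows in all. IL18 had no entry. The 2 windows of IL33 and 1 of the 2 windows of IL1A are printed because IL33 differed most between groups among the 10 genes, and because the IL1A window holds motifs for Nrf2 and AP-1 that the IL33 windows lack. Capitals mark a match on either strand to the antioxidant response element core TGACNNNGC, bound by Nrf2, or to the AP-1 site TGANTCA. The IL33 windows lie on the plus strand at chr9:6214899-6215148 and chr9:6215557-6215806, and the IL1A window on the minus strand at chr2:112784401-112784650.
IL33 window, chr9:6214899-6215148: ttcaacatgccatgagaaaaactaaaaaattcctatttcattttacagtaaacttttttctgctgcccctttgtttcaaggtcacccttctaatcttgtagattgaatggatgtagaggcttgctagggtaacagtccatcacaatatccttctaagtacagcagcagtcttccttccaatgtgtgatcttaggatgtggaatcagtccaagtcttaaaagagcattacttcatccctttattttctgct
IL33 window, chr9:6215557-6215806: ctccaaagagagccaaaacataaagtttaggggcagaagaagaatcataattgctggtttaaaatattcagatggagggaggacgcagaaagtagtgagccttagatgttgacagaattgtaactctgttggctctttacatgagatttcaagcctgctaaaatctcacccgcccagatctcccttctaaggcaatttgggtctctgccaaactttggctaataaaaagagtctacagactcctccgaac
IL1A window, chr2:112784401-112784650: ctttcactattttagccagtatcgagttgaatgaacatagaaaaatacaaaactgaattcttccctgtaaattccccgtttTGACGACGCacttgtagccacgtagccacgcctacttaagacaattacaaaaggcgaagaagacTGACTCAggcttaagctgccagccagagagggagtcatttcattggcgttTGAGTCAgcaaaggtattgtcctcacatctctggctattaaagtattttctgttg

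Neither IL33 window contained the antioxidant response element core, the AP-1 site or the NF-kB consensus. The IL1A window contained the antioxidant response element core at -169 and AP-1 sites at -105 and -55 from the start. The second IL1A window, which overlaps the printed one, contained the same antioxidant response element core at -76 from its own start. Its AP-1 site at -12 was the same site as the one at -105 in the printed window. Among the other windows, 1 of IL1R1 contained the antioxidant response element core at -10, 1 of IL1RN an AP-1 site at -223, 1 of IL1RL1 an AP-1 site at -191 and 1 of IL1R2 the NF-kB consensus at -125. In all, 3 of the 18 windows contained the antioxidant response element core, 4 the AP-1 site and 1 the NF-kB consensus. Over the 35116 windows of the table, 10.9% contained the antioxidant response element core, 6.57% the AP-1 site and 9.96% the NF-kB consensus. Sites shared by overlapping windows, as in IL1A, are counted in each window. By gene, 2, 3 and 1 of the 9 genes had these motifs, beside 3609, 2200 and 3221 of 27305 genes. These matches describe letters within the windows and show no binding.

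The siRNA target was lower on every array. NFE2L2, the gene of Nrf2, read 12.07, 11.92 and 11.98 (log2) in mock, 12.09, 12.03 and 12.15 in NS siRNA and 10.12, 10.32 and 10.30 in Nrf2 siRNA. It stood at 27.9% of NS siRNA and 30.0% of mock (limma, Benjamini-Hochberg adjusted p = 1.92e-10 and 6.07e-10). Array medians were 7.51 to 7.57, and replicates correlated at 0.998 to 0.999 over probe sets. All 6 A549 epithelial markers measured lay above the array median on every array, KRT8 and KRT18 among them, and KRT19 rose by 1.15 against NS siRNA and 1.95 against mock (limma adjusted p = 2.67e-09 and 7.56e-11). EPCAM and CDH1 of the same list each rose by 0.48 against NS siRNA, and stood 2.29-fold and 1.92-fold above mock. KRT7 of that list fell, with differences of -0.17 and -0.21 (limma adjusted p = 0.0219 and 0.0106). Of the 6 markers, limma called 3 higher and 1 lower against NS siRNA, beside 21.0% and 26.6% of all genes. Against mock it called 4 and 1, beside 16.4% and 16.7%. NS siRNA was itself called above mock for 4 of the 6, beside 15.6% of all genes. Among these were KRT19 by 0.80, EPCAM by 0.72 and CDH1 by 0.46. Of 8 leukocyte and myeloid markers, 6 were measured. CD14 among them was higher with Nrf2 siRNA by 0.96 against NS siRNA and 0.99 against mock, and ITGAM differed by -0.28 against NS siRNA. Their summed linear level was 1060 to 1148 in mock, 1153 to 1188 in NS siRNA and 1280 to 1370 in Nrf2 siRNA. Without CD14 the other 5 summed to 841 to 923, 928 to 941 and 851 to 877, so CD14 alone carried the higher sum. The part of these markers in the results on IL33 and its relatives was not tested.

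IL33 had the highest difference of the 10 genes. Its 1 probe set read 5.51, 5.34 and 5.30 in mock, 5.12, 5.36 and 4.88 in NS siRNA and 8.35, 8.29 and 8.21 in Nrf2 siRNA. All 3 Nrf2 siRNA arrays stood above all 6 control arrays, while the 2 control groups overlapped. The means were 5.38 ± 0.11, 5.12 ± 0.24 and 8.28 ± 0.07 (SD, n = 3). IL33 was thus 8.95-fold higher than with NS siRNA (log2 difference 3.16 ± 0.10, SE) and 7.46-fold higher than in mock (2.90 ± 0.10). It ranked 6 of 19775 genes by size of rise against NS siRNA and 3 against mock. In the control groups its signal was among the dimmest, above only 13.7% of probe sets in mock and 10.6% in NS siRNA, against 64.8% with Nrf2 siRNA. NS siRNA differed from mock by -0.26 ± 0.10, a difference that was called in 5 of 17 alternatives though not here, among them the omission of NS siRNA replicate 2 (-0.38). Arrays of bulk RNA cannot tell more cells with a transcript from more transcript per cell.

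IL18, the other ligand with a difference beyond the replicates, moved the same way at a smaller size. It read 10.30, 10.32 and 10.42 in mock, 10.32, 10.21 and 10.15 in NS siRNA and 10.82, 11.14 and 10.94 in Nrf2 siRNA. No Nrf2 siRNA array overlapped a control array. The difference was 0.73 ± 0.08 (SE) against NS siRNA, 1.66-fold, and 0.62 ± 0.08 against mock, 1.54-fold.

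The classical ligands IL1A and IL1B had differences far smaller than that of IL33. IL1A read 6.74, 6.61 and 6.58 in mock, 6.83, 6.73 and 6.93 in NS siRNA and 6.61, 6.64 and 6.76 in Nrf2 siRNA on its brighter probe set. Every pair of groups overlapped there, with a difference of -0.16 ± 0.06 (SE) against NS siRNA and 0.03 against mock. The dimmer IL1A probe set gave -0.24 and -0.16, with all Nrf2 siRNA arrays below all NS siRNA arrays. IL1A was not called against NS siRNA, but 4 of 17 alternatives called it lower: the mean of its probe sets (-0.20), the most variable one, and omission of NS siRNA replicate 2 (-0.21) or Nrf2 siRNA replicate 3 (-0.20). IL1B read 8.64, 8.76 and 8.80 in mock, 8.77, 8.77 and 8.92 in NS siRNA and 8.86, 8.77 and 8.77 in Nrf2 siRNA, again with overlap throughout. Its differences were -0.02 ± 0.06 against NS siRNA and 0.07 ± 0.06 against mock, and its second probe set gave -0.01 and 0.05.

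The antagonist IL1RN was slightly lower. Its brightest probe set read 8.21, 8.24 and 8.08 in mock, 8.26, 8.15 and 8.13 in NS siRNA and 7.99, 8.06 and 7.97 in Nrf2 siRNA. The Nrf2 siRNA arrays lay below all controls, with a difference of -0.17 ± 0.06 (SE) against either group. Of its other 4 probe sets, 3 were lower against NS siRNA, at -0.24, -0.15 and -0.08, and the dimmest gave 0.02. Equal array medians, or omission of Nrf2 siRNA replicate 1 or 3 or of NS siRNA replicate 1 (-0.17 to -0.13), ended the IL1RN call against NS siRNA. The call against mock ended when the probe sets were averaged (-0.09) or the most variable was taken (-0.02), and without mock replicate 1 or 2 or Nrf2 siRNA replicate 1 or 3 (-0.16 to -0.14).

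The receptor IL1R1 separated NS siRNA from the other groups. It read 10.68, 10.74 and 10.69 in mock, 9.85, 9.78 and 9.90 in NS siRNA and 10.72, 10.81 and 10.79 in Nrf2 siRNA. The NS siRNA arrays were the low ones, and mock and Nrf2 siRNA overlapped. IL1R1 was 1.91-fold higher with Nrf2 siRNA than with NS siRNA (log2 difference 0.93 ± 0.05, SE) but differed from mock by 0.07 ± 0.05, and NS siRNA was 1.81-fold below mock. The dimmer probe set gave 0.65, 0.03 and -0.61 for the same 3 contrasts. The size of the IL1R1 difference therefore depended on which control was used.

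IL1RL1, the receptor of IL33, differed little on its brightest probe set. That probe set read 8.49, 8.41 and 8.53 in mock, 8.29, 8.41 and 8.66 in NS siRNA and 8.57, 8.46 and 8.40 in Nrf2 siRNA, with overlap of all groups. The difference was 0.03 ± 0.08 (SE) against NS siRNA and 0.00 against mock. Its other 3 probe sets gave -0.15, -0.10 and -0.14 against NS siRNA. On the first of these all Nrf2 siRNA arrays lay below all NS siRNA arrays but overlapped mock, and on the others the groups overlapped.

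The shared chain IL1RAP was highest in mock. It read 8.55, 8.60 and 8.61 in mock, 8.33, 8.27 and 8.24 in NS siRNA and 8.31, 8.47 and 8.47 in Nrf2 siRNA. Both siRNA groups lay below mock, with differences of -0.30 ± 0.05 (SE) for NS siRNA and -0.17 ± 0.05 for Nrf2 siRNA, and they overlapped each other at a difference of 0.13. That difference was not called, but was in 5 of 18 alternatives: equal array medians, the level filter, the mean of its probe sets, and omission of NS siRNA replicate 1 (0.16) or Nrf2 siRNA replicate 1 (0.19). The second probe set gave -0.57, -0.41 and 0.15. The call of Nrf2 siRNA against mock was lost without mock replicate 2, mock replicate 3 or Nrf2 siRNA replicate 1 (-0.16 to -0.12).

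The decoy receptor IL1R2 was lower with Nrf2 siRNA against both controls. It read 8.47, 8.36 and 8.48 in mock, 8.52, 8.55 and 8.32 in NS siRNA and 7.55, 7.79 and 7.91 in Nrf2 siRNA. All Nrf2 siRNA arrays lay below all controls on both probe sets. The brighter one differed by -0.72 ± 0.09 (SE) against NS siRNA, 1.64-fold lower, and -0.69 ± 0.09 against mock, 1.61-fold lower. The dimmer one gave -0.49 and -0.23, so its contrast with mock was smaller. On the dimmer one all NS siRNA arrays lay above all mock arrays, with a difference of 0.26, beside 0.03 on the brighter one. The mean of the probe sets put NS siRNA 0.14 above mock.

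IRAK2, a kinase that joins the receptor complex through MYD88, took 3 separate levels on its brightest probe set. It read 9.15, 9.17 and 9.10 in mock, 10.83, 10.77 and 10.77 in NS siRNA and 10.02, 9.97 and 9.83 in Nrf2 siRNA. No groups overlapped, and Nrf2 siRNA stood between the controls. It was 1.80-fold below NS siRNA (log2 difference -0.85 ± 0.06, SE) and 1.74-fold above mock (0.80 ± 0.06), while NS siRNA stood 3.14-fold above mock, rank 9 of 19775 by size of rise. Nrf2 siRNA was therefore lower or higher than control depending on which control was chosen. The second probe set gave -0.35, 0.16 and 0.50, and the dimmest one 0.09, 0.10 and 0.01. On the second, Nrf2 siRNA overlapped mock, and on the dimmest all groups overlapped. The mean of the 3 probe sets differed by -0.37 from NS siRNA and 0.35 from mock, with NS siRNA 0.72 above mock, all less than on the brightest one.

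**Figure D1:**
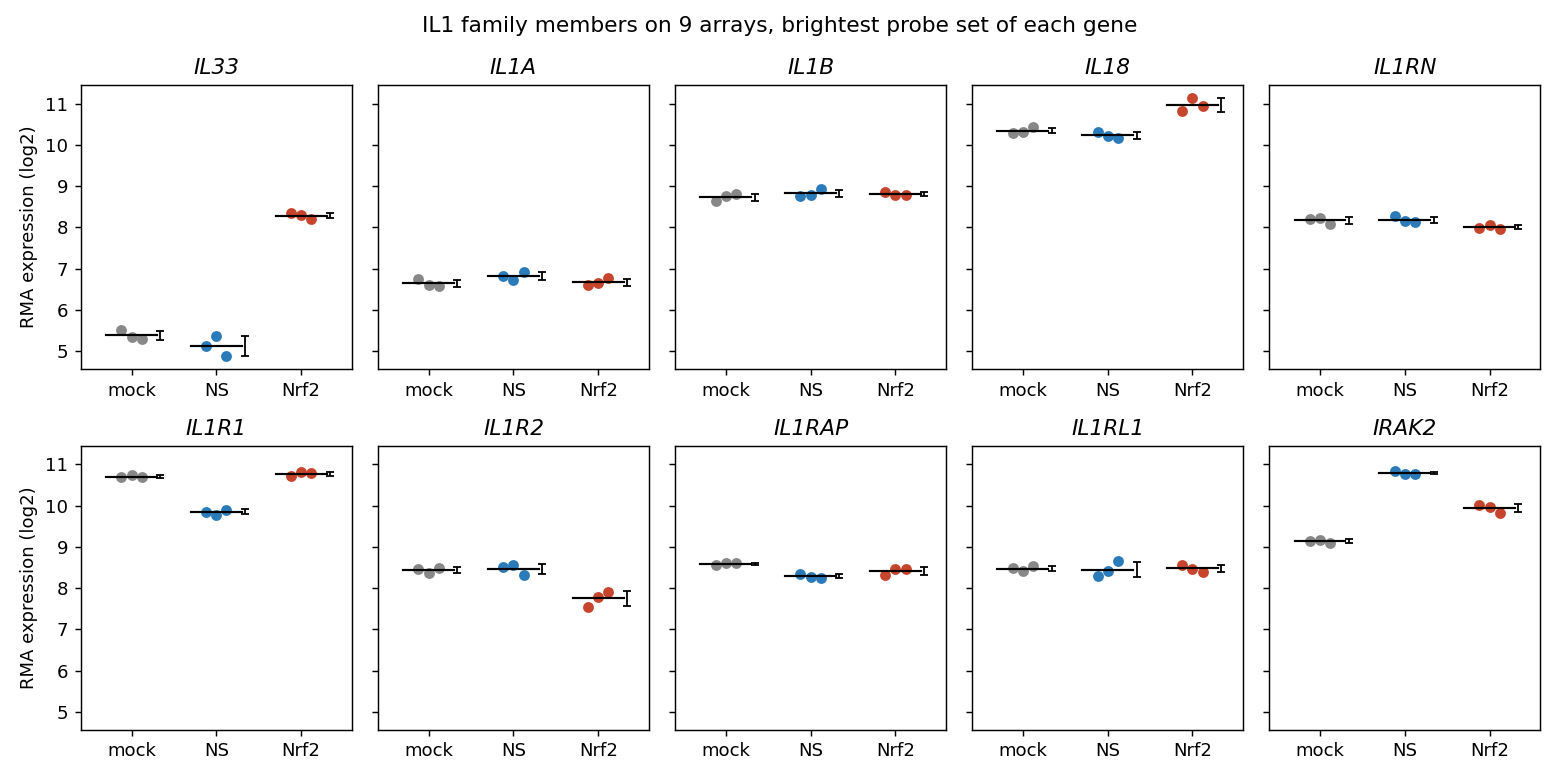
Deposited log2 signal of the brightest probe set of each of the 10 genes on the 9 arrays, with a point per array, a bar at the group mean and an error bar of 1 SD (n = 3). Heights compare groups within a gene, not genes with each other. IL33 sits at 8.21 to 8.35 with Nrf2 siRNA and at 4.88 to 5.51 on the control arrays, and IRAK2 has 3 separate levels.

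Counted over the 10 genes at an adjusted p below 0.05, 3 were higher and 3 lower against NS siRNA, beside 21.0% and 26.6% of all genes. Against mock 3 were higher and 3 lower, beside 16.4% and 16.7% of all genes. NS siRNA against mock called 2 higher and 2 lower, beside 15.6% and 15.2%. IL33 and IL18 were higher, and IL1RN and IL1R2 lower, against both controls, which are compared with the same Nrf2 siRNA arrays. With array medians made equal the split against NS siRNA became 4 higher and 2 lower, and that of NS siRNA against mock 1 higher and 3 lower. The IL1A call of NS siRNA against mock was lost in 12 of 17 alternatives, among them those without mock replicate 2 or 3, NS siRNA replicate 1 or 3 or Nrf2 siRNA replicate 2 (0.14 to 0.19). Since the genes were chosen with these contrasts known, nothing is read from the counts. The median difference of the 10 genes was 0.00 against NS siRNA and 0.05 against mock, beside -0.05 and -0.02 over all genes.

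Over the 24 probe sets, those of IL33 and IL18 had all Nrf2 siRNA arrays above all 6 control arrays, as did 14.3% of single-gene probe sets. The brightest IL1RN probe set and both of IL1R2 had them all below, as did 14.0%. The other 19 overlapped at least 1 control array.

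**Figure D2:**
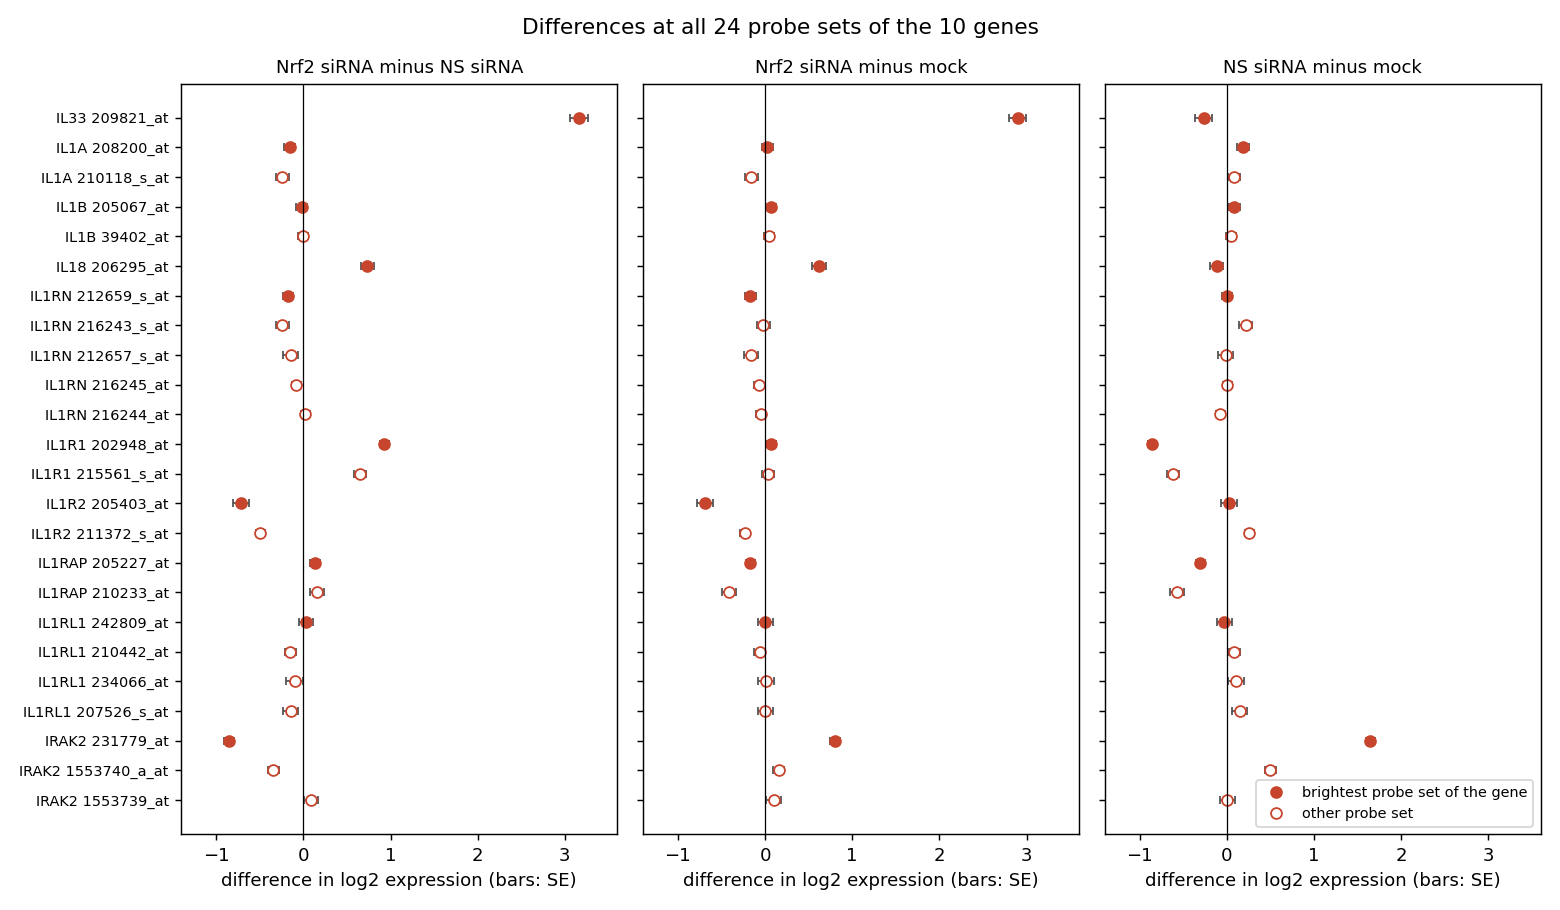
Log2 differences of all 24 probe sets for the 3 contrasts, with bars of 1 SE, filled for the brightest probe set of each gene. IL33 lies at 3.16 against NS siRNA and 2.90 against mock. Both IL1R1 probe sets are near 0 against mock, and the IRAK2 probe sets other than the dimmest are below 0 against NS siRNA and above 0 against mock.

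Adjacent genes of the family had differences of either sign. IL1R2, IL1R1, IL1RL2, IL1RL1, IL18R1 and IL18RAP follow each other on chromosome 2 in RefSeq, and their differences against NS siRNA were -0.72, 0.93, -0.07, 0.03, -0.21 and -0.21. The neighbours IL1R2 and IL1R1 differed in sign, and IL18R1 and IL18RAP shared one. IL33 lies alone on chromosome 9 between RANBP6 and TPD52L3. IL1A and IL1B are adjacent on chromosome 2, with IL1RN at the far end of the same cluster.

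The genes whose 9-array profile was most like that of IL33, by root mean square difference of centred log2 values, were SYTL5 (0.132), TOX3 (0.148), RASGEF1A (0.222), TNFSF15 (0.229) and TRPC6 (0.284). TNFSF15 is a cytokine of the tumour necrosis factor family. Against NS siRNA they were higher by 3.17, 3.13, 3.17, 2.74 and 2.51, and against mock by 2.66, 2.72, 2.46, 2.49 and 2.47. They were picked by likeness to IL33, whose profile is mostly its rise with Nrf2 siRNA, so these rises follow from the choice. NS siRNA differed from mock by -0.51, -0.41, -0.71, -0.25 and -0.04 in them, called lower in all but TRPC6. For IL33 that difference was -0.26 and not called. Within the family IL18 came closest to IL33 at 1.12, rank 570, and IL1R2 lay farthest at 1.77, rank 19506, with a median of 1.46 over all genes.

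**Figure D3:**
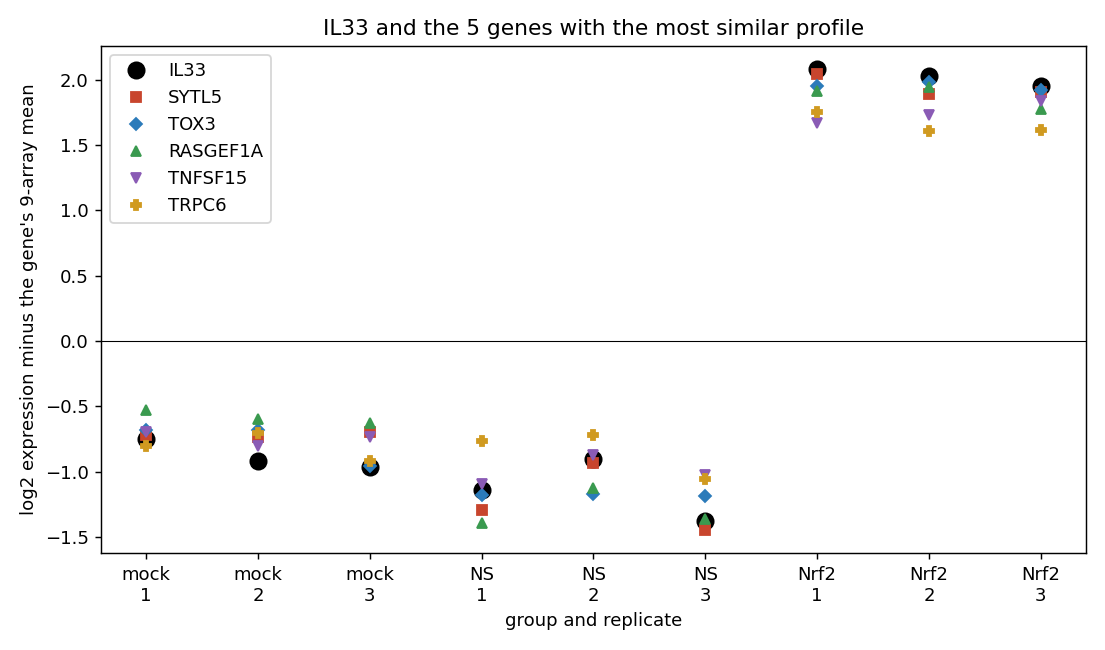
Log2 profiles over the 9 arrays, each centred on its own mean, of IL33 and the 5 genes nearest to it. The 5 were chosen by this likeness, so the shared step up on the Nrf2 siRNA arrays follows from the choice. Their root mean square differences from IL33 run from 0.132 to 0.284.

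Of 76 other pathway genes listed, 69 were measured. Of these, 20 were higher and 15 lower against NS siRNA, 17 and 9 against mock, and 11 and 12 for NS siRNA against mock (limma, adjusted p below 0.05). That is 50.7%, 37.7% and 33.3% of the list, near the 47.6%, 33.0% and 30.8% of all genes called in the same contrasts. Their median difference against NS siRNA was -0.04, beside -0.05 over all genes. The lists, too, were chosen with earlier results of these data known. The genes named from each list were those of smallest adjusted p. The p values and counts given for the lists therefore describe these arrays and are not independent evidence. Among 6 other ligands IL1F10 fell against NS siRNA, with a difference of -0.18 ± 0.07 (SE; limma adjusted p = 0.0473), a call lost in 9 of 18 alternatives, among them 6 that each left out 1 array (mock replicate 3, NS siRNA replicate 2 or 3, or Nrf2 siRNA replicate 1, 2 or 3; -0.19 to -0.12). IL36A, IL36G and IL37 differed by -0.06, -0.11 and -0.07 (limma adjusted p = 0.269, 0.112 and 0.43). Against mock limma called 0 of the 6, with 0 at an unadjusted p below 0.05, beside 33.0% of all genes called.

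Among 7 other receptors and binding proteins, 4 fell against NS siRNA, with small sizes, beside 26.6% of all genes. The IL18 receptor chains IL18R1 and IL18RAP differed by -0.21 ± 0.06 and -0.21 ± 0.07 (SE; limma adjusted p = 0.0158 and 0.0264), and the inhibitory receptor SIGIRR by -0.20 ± 0.05 (0.0102), a call lost with the most variable SIGIRR probe set. IL1RAPL1 differed by -0.13 (0.038), a call lost in 12 of 17 alternatives, among them those without mock replicate 1 or without NS siRNA or Nrf2 siRNA replicates 1 or 2. Leaving out Nrf2 siRNA replicate 3 or NS siRNA replicate 1 ended the IL18R1 call (-0.19 and -0.18), and that of IL18RAP ended without replicate 2 or 3 of either siRNA group (-0.22 to -0.16). Against mock 1 of the 7 was called, beside 33.0% of all genes: IL18R1 at -0.35 (limma adjusted p = 0.00075). In NS siRNA against mock IL18RAP rose by 0.23 (limma adjusted p = 0.024), a call that ended without mock replicate 2 (0.15) or NS siRNA replicate 2 or 3.

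Of 17 receptor-proximal signalling genes, 8 rose and 1 fell against NS siRNA, beside 21.0% and 26.6% of all genes, and 6 rose and 3 fell against mock, beside 16.4% and 16.7%. The share called in either direction was 52.9% against NS siRNA, beside 47.6% of all genes, and whether the list differs from other genes was not tested. PELI1, an E3 ubiquitin ligase that acts on IRAK proteins, read 8.20, 8.34 and 8.20 in mock, 7.61, 7.46 and 7.50 in NS siRNA and 10.23, 10.36 and 10.36 in Nrf2 siRNA. It rose 6.94-fold over NS siRNA (2.80 ± 0.06, SE; limma adjusted p = 1.02e-11) and 4.21-fold over mock (1.25e-10), with that sign in all 3 of its probe sets. The adaptor MYD88 rose by 0.98 ± 0.05 against NS siRNA (limma adjusted p = 7.73e-09) and 0.49 against mock (7.55e-06). The kinases MAP3K8 and IKBKB rose by 0.79 and 0.65 against NS siRNA (limma adjusted p = 2.7e-06 and 1.23e-07) and by 0.62 and 0.57 against mock (4.03e-05 and 8.18e-07). In NS siRNA against mock 6 of the 17 fell and 1 rose, beside 15.2% and 15.6% of all genes. MYD88 stood at -0.49 (limma adjusted p = 1.1e-05) and PELI1 at -0.72 (1.54e-06). That PELI1 sign was seen in 1 of its 3 probe sets, and the call was lost in their mean (-0.22). Averaging the probe sets of a gene gave 1.56 and 1.34 for PELI1 against NS siRNA and mock, and 0.41 and 0.37 for IKBKB, and left MAP3K8 at 0.41 against mock.

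Genes of maturation and release rose in 7 and fell in 2 of 22 cases against NS siRNA, beside 21.0% and 26.6% of all genes. They rose in 4 and fell in 3 against mock, beside 16.4% and 16.7%. The share called was 40.9% and 31.8%, below the 47.6% and 33.0% of all genes. S100A13, which takes part in IL1A export, rose by 0.65 against NS siRNA and 0.22 against mock (limma adjusted p = 3.24e-07 and 0.00455, the latter lost with the mean of its probe sets). CARD8, an inflammasome sensor, and GSDME, a pore-forming gasdermin, rose by 0.48 and 0.39 against NS siRNA (limma adjusted p = 1.06e-05 and 1.22e-05) but differed from mock by 0.05 and 0.01 (0.548 and 0.921). The calpain CAPN2, of the protease family that cleaves IL1A, rose by 1.19 ± 0.05 (SE) against NS siRNA (limma adjusted p = 5.22e-10) and stood at -0.23 against mock (0.00179), with that sign in 1 of 2 probe sets. NS siRNA lay below mock for CARD8, GSDME, CAPN2 and S100A13, with differences of -0.43, -0.38, -1.42 and -0.43 (limma adjusted p = 6.31e-05, 3.38e-05, 6.54e-10 and 3.1e-05). With probe sets averaged, CARD8 gave 0.15 against NS siRNA and -0.12 for NS siRNA against mock, and CAPN2 gave 0.58 and -0.67, while CAPN2 (-0.09) and S100A13 (0.11) were no longer called against mock.

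Genes commonly induced by IL1 in epithelial cells rose in 5 and fell in 7 of 17 cases against NS siRNA, and rose in 7 and fell in 2 against mock. Of all genes 21.0% rose and 26.6% fell against NS siRNA, and 16.4% and 16.7% against mock; the difference between list and all genes was not tested. NFKBIZ, a nuclear cofactor of NF-kB, rose 3.28-fold over NS siRNA and 4.05-fold over mock (limma adjusted p = 2.65e-10 and 1.81e-10). PTGS2, the inducible cyclooxygenase, rose 2.88-fold and 2.93-fold (2.45e-08 and 4.27e-08; limma adjusted). The chemokine CXCL1 rose by 0.79 ± 0.07 and 0.94 ± 0.07 (SE; limma adjusted p = 1.28e-06 and 5.95e-07). TNFAIP3 and TNIP1, which restrain NF-kB, fell against NS siRNA, with differences of -0.75 and -0.47 (limma adjusted p = 2.03e-06 and 7.02e-06). Against mock they stood at -0.17 and 0.23 (limma adjusted p = 0.0913 and 0.00328). TNFAIP3 was called lower against mock in 3 of 18 alternatives: quantile normalization, the mean of its probe sets (-0.16) and omission of Nrf2 siRNA replicate 1 (-0.25). NS siRNA against mock raised 9 of the 17 and lowered 1, beside 15.6% and 15.2% of all genes. Among those that rose were TNFAIP3 by 0.58 and TNIP1 by 0.70 (limma adjusted p = 4.73e-05 and 5.16e-07). Averaging its probe sets gave TNIP1 -0.24 against NS siRNA, 0.12 against mock and 0.36 for NS siRNA against mock.

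**Figure D4:**
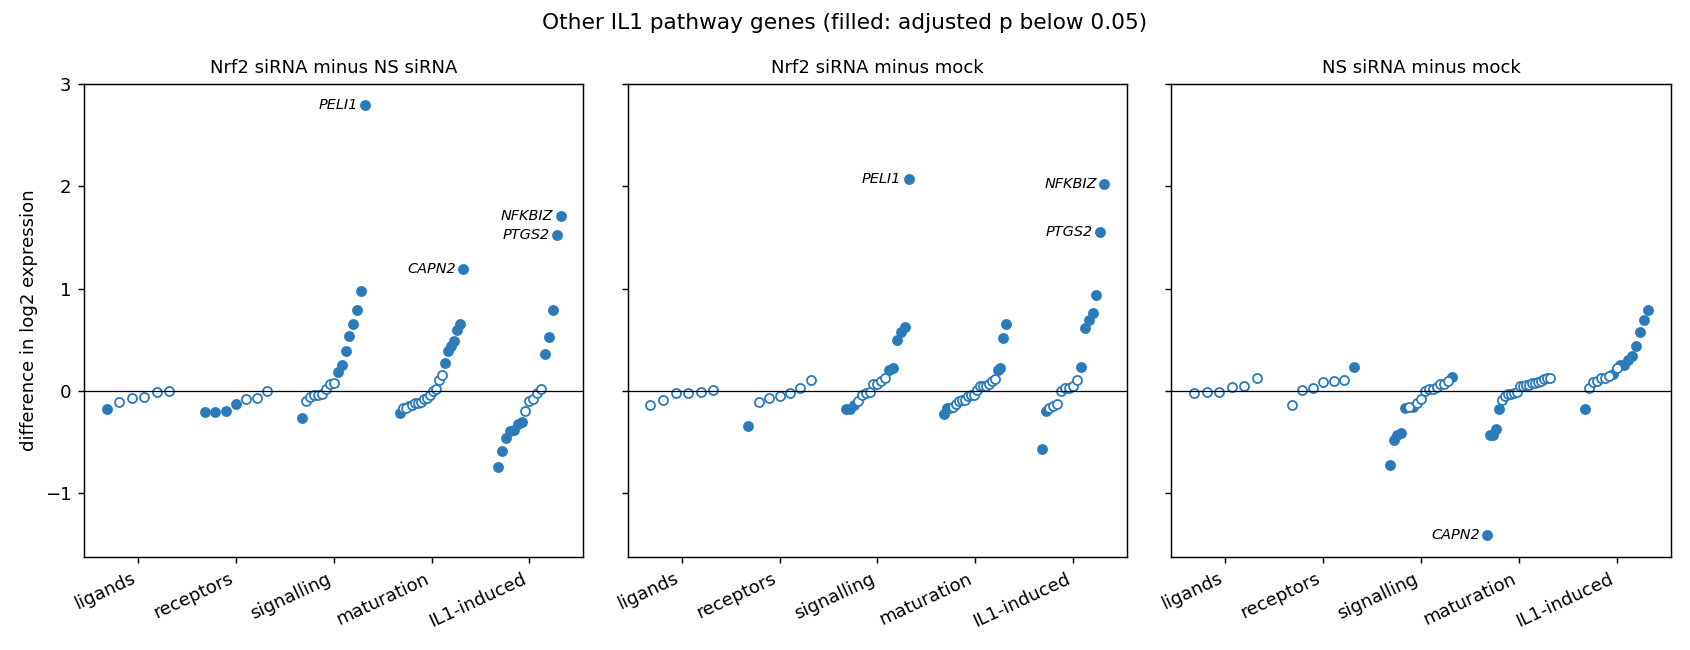
Log2 differences of the other pathway genes in 5 lists for the 3 contrasts, filled where limma's adjusted p was below 0.05. PELI1 at 2.80 and NFKBIZ at 1.71 stand out against NS siRNA. The genes commonly induced by IL1 have 9 of 17 called higher in NS siRNA against mock, beside 15.6% of all genes.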

How the data were processed

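Total RNA from 9 cultures was measured on arrays of 54675 probe sets. The authors deposited log2 values. Per the submitters' processing notes RMA was the method, and its version is not given in the sources used here. Probe sets with exactly 1 gene in the platform annotation (41091) were kept, leaving out 62 control probe sets, and the probe set with the highest mean stood for a gene. Group means over all 9 arrays were fitted with limma 3.58.1 (lmFit, eBayes, two-sided) in R 4.3.3, with Benjamini-Hochberg adjustment over 19775 genes and a threshold of 0.05. Precision is limited by the number of arrays. The fit was also run on simulated data with independent noise and far fewer changed genes than were called here. That run does not measure the error of the calls given here. Members and lists were chosen with earlier results of these data known. Genes were named by rule: all 10 members, per list up to 4 genes of smallest adjusted p for Nrf2 siRNA against NS siRNA and up to 2 for NS siRNA against mock, 5 genes most like IL33, and NFE2L2. The 7 listed genes with no single-gene probe set were not analysed here. Promoter motifs were matched in Python 3.11.15 in RefSeq windows, and plots were drawn with matplotlib 3.10.9. Alternatives covered scaling, probe set choice, a level filter, the variance model, the threshold, the replicate block and leaving out arrays.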

Additional observations from a re-analysis of the deposited data

How the results depend on the processing

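Among the 10 members and the other pathway genes named, no called value changed sign under any alternative run. Each run took a single value per gene. Single probe sets could have the other sign, as for PELI1 in NS siRNA against mock and CAPN2 in Nrf2 siRNA against mock. IL33 stayed higher in all 17 alternatives that kept it, by 3.04 to 3.28 against NS siRNA and 2.86 to 2.96 against mock; a filter on the median level removed IL33 and IL1A. IL18, IL1R1, IL1R2 and IRAK2 kept their calls against NS siRNA in all 18. At an adjusted p below 0.01, 15 other pathway genes were called for NS siRNA against mock instead of 23, since the threshold is stricter. Over all genes the calls of that contrast went from 6082 to 4205. Leaving out each array in turn gave 32 to 36, 22 to 27 and 16 to 22 other pathway genes called against NS siRNA, against mock and for NS siRNA against mock, and 6 to 7, 4 to 6 and 3 to 5 of the 10 members. Over all genes these runs called 8173 to 9382, 5581 to 6471 and 5069 to 6172, beside 9422, 6530 and 6082 with every array kept. A replicate block gave 35, 28 and 23 other pathway genes and 6, 6 and 5 members, beside 9720, 6804 and 6366 of all genes. Same-numbered arrays deviated together only weakly (correlations -0.21 to 0.23), beside -0.34 to 0.20 for arrays of different numbers. The numbers were not taken as pairs, although 7 of 9 arrays correlated best, on average, with the arrays of their own number. The block also called more of all genes in each contrast, so a pairing by number is not excluded. Dim probe sets, IL33 in the controls above all, limit how exactly a fold can be read, and 3 arrays a group limit small differences such as that of IL1RN.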
